A study of Mus musculus with 46 samples.

Results

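Lrp8 and 3 genes that work with it in the reelin pathway, Vldlr, Reln and Dab1, were followed through every tumor of a mouse synovial sarcoma study. These 4 genes are a small choice from the 56854 genes held in both of its count tables. They were chosen by the level of Lrp8, which was many times higher on average in tumors with a disrupted Arid1a, so their values in that comparison are given as a description, with no test. The choice set no numeric threshold. RNA was sequenced from 46 bulk tumors, 1 library each. All mice carried a human fusion gene behind a stop that Cre removes, SS18::SSX2 (hSS2) or SS18::SSX1 (hSS1), and Cre protein (TATCre) was injected into the limb at 8 days of age. The 13 hSS2 control and 5 hSS1 control tumors are labeled with the fusion alone and no floxed remodeler allele. A further 8 hSS2 tumors were homozygous for floxed Arid1a (Arid1a-fl), 8 for floxed Arid1b (Arid1b-fl) and 8 for floxed Pbrm1 (Pbrm1-fl), and 4 hSS1 tumors were homozygous for floxed Pbrm1. The mice were of mixed strain and 2 to 6 months old, and the injected Cre protein acts in any cell that takes it up, so no promoter limits the cell type.

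Reelin, encoded by Reln, is a large secreted glycoprotein. It binds the lipoprotein receptors ApoER2, encoded by Lrp8, and VLDLR, encoded by Vldlr. Clustering of these receptors brings the adaptor DAB1, encoded by Dab1, to SRC family kinases such as FYN, and phosphorylated DAB1 passes the signal on to CRK proteins and the cytoskeleton. The pathway is best known for placing neurons in the developing cortex. Beyond that role, ApoER2 also takes up selenoprotein P, which carries selenium, and VLDLR handles triglyceride-rich lipoproteins in muscle, heart and fat. ARID1A and ARID1B are subunits of the canonical BAF chromatin remodeler (CBAF), and PBRM1 is a subunit of the PBAF form.

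Library totals ran from 10137668 to 21294657 counted reads. Levels are given as CPM, the count per 1000000 reads of a library, after TMM scaling, which corrects for a few genes taking a large share of the reads. Arid1a itself averaged 482 ± 85.8 CPM (SD) over the 13 hSS2 controls and 249 ± 14.1 over the 8 Arid1a-fl tumors. The library labeled hSS2 control replicate 9 held 238 CPM, within the range of the Arid1a-fl tumors, and results that use the controls were run without it too. Pbrm1 was 104 ± 14.9 CPM (n = 8) in hSS2 Pbrm1-fl tumors against 250 ± 35.3 in controls, and 197 ± 66.2 (n = 4) against 332 ± 38.5 (n = 5) in hSS1. Arid1b was 200 ± 87.3 CPM (n = 8) in Arid1b-fl tumors against 349 ± 114, and those ranges overlapped. Mouse numbers in the titles fell into ranges that coincided with the floxed gene, so comparisons were repeated with controls of the same range, in hSS1 too. The study describes littermate controls, but the labels name no litter or batch for a tumor.

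On a scale that allows comparison between genes, CPM per kilobase of exon, Reln was the most abundant of the 4 genes in the hSS2 control tumors at 65.9 ± 35 (SD, n = 13). Dab1 followed at 9.62 ± 3.56. The receptors were low, at 4.01 ± 2.58 for Lrp8 and 3.44 ± 2.59 for Vldlr. Those values lie within each other's spread. The same order held in hSS1 control tumors (n = 5), with 41.3 ± 9.0 for Reln, 12.9 ± 3.85 for Dab1, 10 ± 9.06 for Lrp8 and 3.50 ± 1.83 for Vldlr, where the values of Dab1, Lrp8 and Vldlr overlapped in their spread between neighbors. The control tumors thus held more transcript of the ligand than of either receptor, per length. In bulk tissue, fewer cells of a type and less RNA per cell cannot be told apart. Levels of hSS1 and hSS2 controls were not tested against each other, since each fusion has a table of its own.

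Lrp8 (ENSMUSG00000028613) lies on chromosome 4 from 107802261 to 107876840 on the plus strand (GRCm38). In the 13 hSS2 control tumors it ran from 14.8 to 83.6 CPM, with a median of 26.3. In the 8 Arid1a-fl tumors, in replicate order, it stood at 4878, 53.4, 43.6, 55.9, 1151, 13.3, 18.8 and 28.7 CPM. Replicates 1 and 5 were thus 58.3 and 13.8 times the highest control tumor. The other 6 Arid1a-fl tumors did not reach the top of the control range. Their values spanned 13.3 to 55.9 CPM with a mean of 35.6 ± 18.0 (SD), beside 42.2 ± 27.2 in the controls, 4 of the 6 stood above the control median, and 1 was below the lowest control.

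Replicates 1 and 5 together carried 96.6% of all Lrp8 CPM summed over the Arid1a-fl group, and replicate 1 alone carried 78.1%. In replicate 1 Lrp8 took 0.491% of all counted reads and was the number 5 gene of the library by count. In replicate 5 it ranked 39. The fitted difference between the groups was 4.21 on the log2 scale (SE 0.74), a ratio of 18.5 between group means, whereas the group medians of 48.5 and 26.3 CPM differed by 1.85-fold. Without replicate 1 the fitted difference was 2.21, and without both replicates 1 and 5, a setting chosen after seeing the data, it was -0.24. DESeq2 gave 2.06, and that fit replaced the replicate 1 count of 86023 by 561 as an outlier. Against the 5 control tumors of the same mouse number range the difference was 4.54, and without control replicate 9 it was 4.35. The group difference for Lrp8 in Arid1a-fl tumors thus rested on 2 of 8 tumors.

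**Figure D1:**
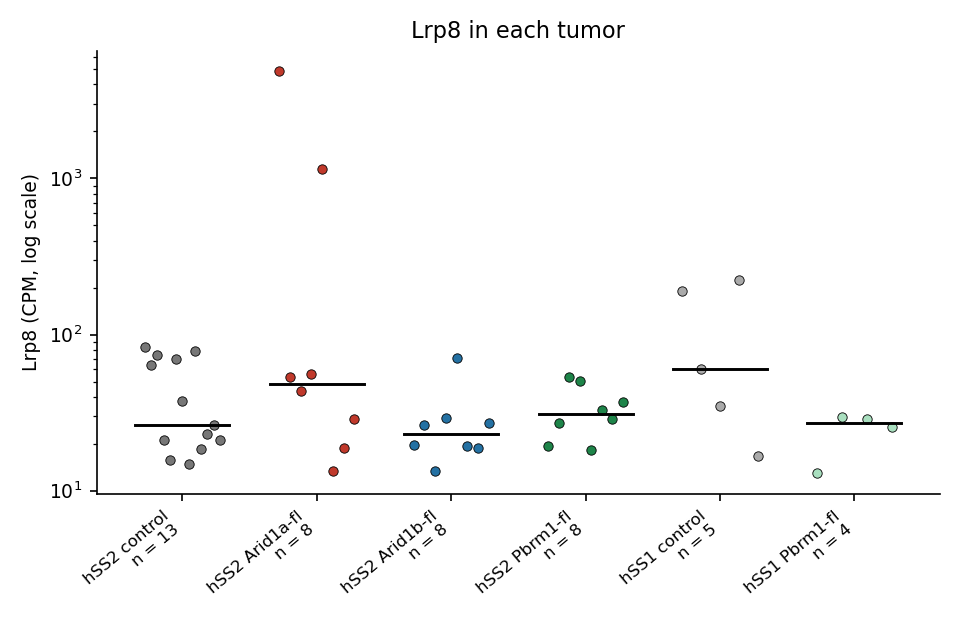
Lrp8 level (CPM, log scale) in each of 46 tumors by genotype group, with bars at the group medians and tumors of a group spread from left to right in replicate order. Arid1a-fl replicates 1 and 5, at 4878 and 1151 CPM, stand alone, and the other 6 tumors of that group lie between 13.3 and 55.9 CPM, below the highest control at 83.6 CPM.

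The other hSS2 genotypes did not show such tumors. Lrp8 in the 8 Arid1b-fl tumors ran from 13.4 to 71.1 CPM with a median of 23.0, and in the 8 hSS2 Pbrm1-fl tumors from 18.2 to 53.6 with a median of 30.9. No tumor of either group exceeded the highest control. The log2 difference from control was -0.59 (SE 0.73, edgeR quasi-likelihood adjusted p = 0.95) for Arid1b-fl and -0.34 (SE 0.72, adjusted p = 0.827) for Pbrm1-fl. The 95% intervals, -2.02 to 0.85 and -1.75 to 1.08, both reach beyond a 2-fold difference downward, and that for Pbrm1-fl upward too. Above the control median stood 4 of 8 Arid1b-fl and 6 of 8 Pbrm1-fl tumors. Both comparisons share the 13 control tumors with the one on which Lrp8 was picked.

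In the hSS1 table, which shares no library with that choice, the 5 control tumors held 190, 59.8, 34.8, 225 and 16.8 CPM of Lrp8, and the 4 Pbrm1-fl tumors held 12.9, 29.5, 28.8 and 25.5. In hSS1 4 of 5 controls stood above every Pbrm1-fl tumor, and the fifth control lay among them. The log2 difference was -2.12 (SE 0.75), with an unadjusted p of 0.0194 that did not pass in edgeR after adjustment over all genes (adjusted p = 0.214) and passed in DESeq2 (adjusted p = 0.042). Against the 3 controls of the same mouse number range, a setting chosen after seeing the data, it was -1.92 (edgeR adjusted p = 0.409). The Pbrm1-fl effect on Lrp8 in hSS1 minus that in hSS2 was -1.81 (SE 1.26, adjusted p = 0.447), so a difference between the fusions was not shown. The 2 Pbrm1-fl groups did not lose Pbrm1 alike. Its median was 0.643 of the control median in hSS1 and 0.383 in hSS2. The 4 hSS1 Pbrm1-fl tumors held 209, 252, 102 and 226 CPM of Pbrm1. Neuron markers stood lower in hSS1 Pbrm1-fl tumors too, with 0 of 5 tested called by edgeR, 3 lower at an unadjusted p under 0.05 and 3 called by DESeq2. Summed over 6 markers they stood at 133, 204, 161, 35.4 and 13.1 CPM in the controls and at 9.15 to 21.5 CPM in the Pbrm1-fl tumors, with Snap25 and Syt1 at 0 in some controls and Nefl at 0 in some Pbrm1-fl tumors. Summed proliferation markers, 8 in number, were 735 to 1976 CPM in hSS1 controls and 402 to 1162 in hSS1 Pbrm1-fl tumors, with 0 of 8 called by edgeR, 2 by DESeq2 and 7 lower at an unadjusted p under 0.05. Fibroblast markers, 6 in number, stood the other way, at 450 to 2171 CPM in controls (Pi16 at 0 in some) and 2067 to 5927 in Pbrm1-fl tumors, with 0 of 5 tested called by edgeR or DESeq2 and 3 higher at an unadjusted p under 0.05. Over all genes 17.2% had such an unadjusted p. The part of these lists in the Lrp8 values was not tested.

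The genes around Lrp8 were read in the same 8 Arid1a-fl tumors. Of 14 protein-coding genes starting within 500 kb of the Lrp8 start, 11 passed the filter on low counts. Magoh, a component of the exon junction complex, is the next gene downstream and starts 2.92 kb beyond the Lrp8 end on the same strand. It stood at 117 CPM in replicate 1 and 38.5 in replicate 5, and at 15.9 to 26.6 in the other 6, against 15 to 22.2 in the 13 controls. Magoh was the gene called among those 11, with a log2 difference of 0.93 (SE 0.24, adjusted p = 0.036). That call depended on single tumors, replicates 1 and 5 among them. The difference was 0.32 (adjusted p = 0.224) without replicate 1, 0.90 (adjusted p = 0.0614) without replicate 5 and 0.97 (adjusted p = 0.0763) without replicate 8. Against controls of the same number range it was 0.75 (adjusted p = 0.138), and in a fit of the 2 groups alone 0.97 (adjusted p = 0.0946). It was 0.14 (adjusted p = 0.584) without both replicates 1 and 5.

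Beyond Magoh the tested neighbors departed less. In replicate 1 the log2 level minus the control median was 7.53 for Lrp8 and 2.72 for Magoh, while the other 10 tested neighbors lay between -1.38 and 1.37 with a median of 0.50. The highest of those was Ndc1, a nuclear pore component with its start at -434.5 kb (negative distances lie upstream), at 78.1 CPM against a control maximum of 49.5. In replicate 5 the values were 5.45 for Lrp8, 1.12 for Magoh and -0.58 to 0.65 for the other 10, with a median of 0.09. Replicate 1 exceeded all 13 controls for 6 of the 11 tested neighbors and replicate 5 for 3 of them. The share of all genes above every control in these tumors was not counted, so those counts cannot be read as particular to the region. Upstream of Lrp8, Glis1 was the nearest tested gene at -367.7 kb, and both tumors lay within its control range. Dmrtb1, nearer at -118.0 kb, was too low to be tested. It stood at 1.64 CPM in replicate 1 and 0.500 in replicate 5, above the control maximum of 0.110. Of the other untested genes, Dio1 was at 0 in both tumors. Slc1a7 was at 0 in replicate 1 and at 0.188 CPM in replicate 5, against a control maximum of 0.166. The antisense gene Lrp8os2 stood at 0.454 CPM in replicate 1 and 0.188 in replicate 5, and the counting was not stated to use strand. Gene counts do not separate Lrp8 transcript forms, and whether reads run from Lrp8 into Magoh was not tested.

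**Figure D2:**
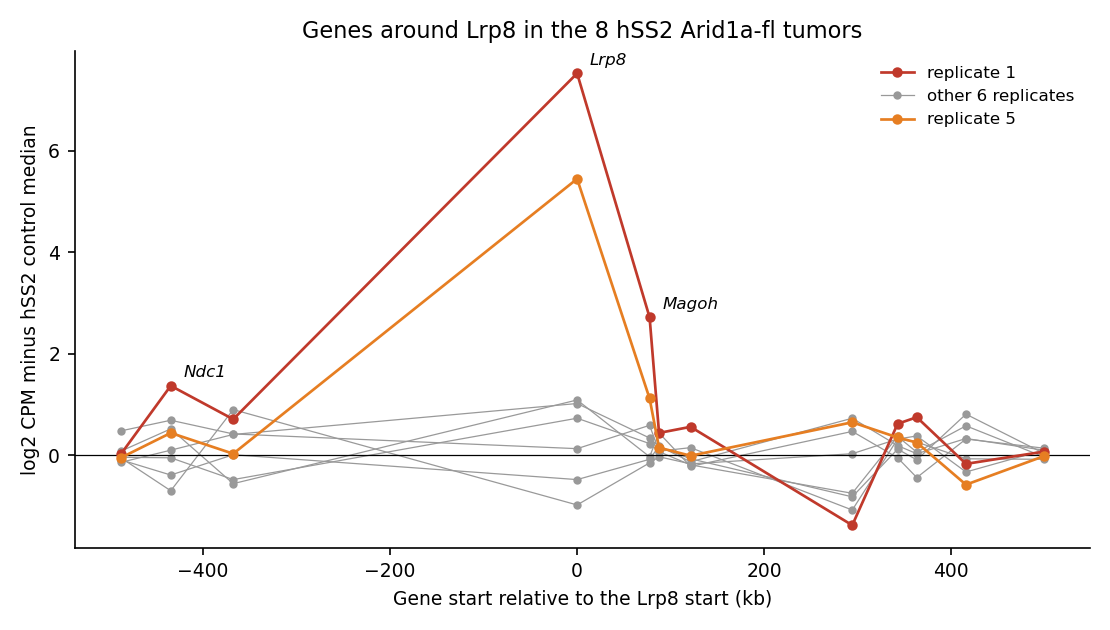
Log2 CPM minus the median of 13 hSS2 control tumors (vertical axis) for Lrp8 and 11 tested protein-coding neighbors, by distance of the gene start from the Lrp8 start in kb (horizontal axis), 1 line for each of 8 Arid1a-fl tumors. Replicates 1 and 5 peak at Lrp8, at 7.53 and 5.45, with Magoh next at 2.72 and 1.12.

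Both tumors were read for 12 lists of cell type and state markers. Replicate 5 lay inside the control range for all 12, and replicate 1 for 9. Their summed synovial sarcoma markers, 6 in number and all detected, were 1089 and 1035 CPM, inside the control range of 768 to 1283. Megakaryocyte and platelet markers, which mark cells known to use ApoER2, stood at 10.2 and 8.01 CPM, inside the control range of 5.38 to 15.5. Summed neuron markers were 33.1 and 8.57 CPM, also within the controls at 7.56 to 106. Replicate 1 held the highest sum of proliferation markers among the Arid1a-fl tumors, 1713 CPM, above the control range of 79.6 to 1269, and replicate 5 held 760. Skeletal muscle markers were at 12.1 CPM in replicate 1, below every control tumor, and at 21623 in replicate 5. Lymphatic endothelium markers, 5 in number, were at 38.1 CPM in replicate 1, below the control range of 76.0 to 354, and at 99.5 in replicate 5. Over the Arid1a-fl group, 0 of 8 proliferation markers were called by edgeR or DESeq2 and 4 were higher at an unadjusted p under 0.05, beside 23% of all genes in either direction. The part of proliferation, muscle or lymphatic content in the Lrp8 levels was not tested.

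The 5 genes most like Lrp8 over the 37 hSS2 libraries, by Pearson r of log2 CPM among 17285 genes, were Mybbp1a, C1qbp, Magoh, Rad23b and Nhp2. Their r ran from 0.82 to 0.83. Mybbp1a and Nhp2 act in ribosome production, C1qbp is a mitochondrial protein and Rad23b works in DNA repair. Mybbp1a stood at 348 CPM in Arid1a-fl replicate 1 and 223 in replicate 5, above the control maximum of 182. Nhp2 stood at 58.8 CPM in replicate 1, but its 32.1 in replicate 5 was below the control maximum of 33.6. Without those libraries r fell to between 0.33 for Magoh and 0.54 for Rad23b, so the likeness rested largely on them. Over the 9 hSS1 libraries r was 0.33 to 0.67. These are descriptions of libraries that share depth and tumor content.

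Vldlr (ENSMUSG00000024924; chromosome 19, 27216484 to 27254231, plus strand) was the other receptor. Its level in hSS2 control tumors ran from 16 to 118 CPM with a median of 27.3. The Arid1a-fl tumors spanned 4.46 to 64.2 CPM (median 21.2), and 2 of 8 lay below the lowest control. The log2 difference, which is a description as for Lrp8, was -0.14 (SE 0.49). It changed sign, to 0.22, when control replicate 11 was left out.

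In Arid1b-fl tumors Vldlr ran from 16.1 to 215 CPM with a median of 30.3. Replicates 1 and 3, at 215 and 118, exceeded every control and the other 6 did not. The log2 difference of 0.80 (SE 0.48) did not pass (edgeR adjusted p = 0.813). In hSS2 Pbrm1-fl tumors it ran from 5.92 to 47.8 CPM with a median of 19.7, and 4 of 8 tumors fell below the lowest control, yet the difference of -0.79 (SE 0.50) did not pass either (adjusted p = 0.368). In hSS1 the controls held 34.8, 53.1, 43, 40.7 and 4.51 CPM and the Pbrm1-fl tumors 7.88, 10.4, 12.5 and 11. Control replicate 5 was the lowest of all 9 and the remaining 4 controls stood above every Pbrm1-fl tumor. The log2 difference was -1.75 (SE 0.57), with an unadjusted p of 0.0127 and an edgeR adjusted p of 0.192. DESeq2 gave an adjusted p of 0.0358, and leaving out control replicate 5 gave a difference of -2.04 with an edgeR adjusted p of 0.0483. Against the 3 controls of the same number range it was -1.48 (adjusted p = 0.402). The hSS1 effect minus the hSS2 effect was -0.96 (SE 0.87, adjusted p = 0.577).

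Markers of skeletal muscle, a tissue that expresses Vldlr, differed widely between these samples. Over 8 muscle markers, all detected in every hSS2 tumor, the summed level ran from 21.8 to 93554 CPM in controls, 16.8 to 89059 in Arid1b-fl, 14.8 to 33608 in hSS2 Pbrm1-fl and 12.1 to 21623 in Arid1a-fl tumors. The 3 hSS2 tumors highest in Vldlr, which were Arid1b-fl replicates 1 and 3 and control replicate 11, were also the 3 highest of 37 in muscle markers, at 89059, 74089 and 93554 CPM. Below them the orders parted. Arid1a-fl replicates 8 and 2, next in Vldlr at 64.2 and 63.9 CPM, ranked 15 and 18 in muscle markers, and control replicate 4, at rank 4 in muscle, ranked 8 in Vldlr. The genes most like Vldlr over the 37 libraries were Dapk2 (r = 0.86), Ank1 (r = 0.84) and Stbd1 (r = 0.83). Ank1 encodes ankyrin 1 and Stbd1 a glycogen-binding protein, and both have muscle transcripts. The part of muscle content in the Vldlr values was not tested. In hSS1, where muscle markers summed to 10.8 to 4368 CPM in controls and 12.2 to 186 in Pbrm1-fl tumors, controls 1 and 4 held 34.8 and 40.7 CPM of Vldlr with only 10.8 and 17.6 CPM of muscle markers.

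**Figure D3:**
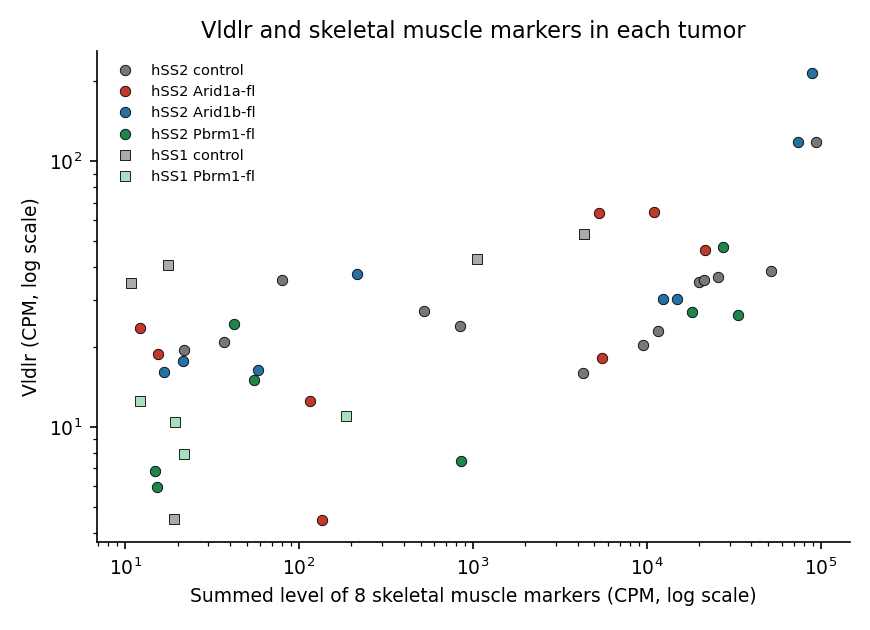
Vldlr level against the summed level of 8 skeletal muscle markers (both in CPM on log scales) in 46 tumors, colored by group, with circles for hSS2 and squares for hSS1. The 3 tumors at the upper right are Arid1b-fl replicates 1 and 3 and hSS2 control replicate 11, at 118 to 215 CPM of Vldlr.

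Reln (ENSMUSG00000042453; chromosome 5, 21884454 to 22344702, minus strand) was high in every tumor. It ran from 536 to 3764 CPM in hSS2 controls (median 1701), 607 to 1894 in Arid1a-fl (median 1086), 1021 to 2412 in Arid1b-fl (median 1428) and 874 to 2452 in Pbrm1-fl tumors (median 1695). All 3 floxed groups lay inside the control range. In the Arid1a-fl group 7 of 8 tumors were below the control median, with a fitted log2 difference of -0.44 (SE 0.26). The differences for Arid1b-fl, -0.05 (SE 0.26, adjusted p = 0.993), and Pbrm1-fl, 0.07 (SE 0.26, adjusted p = 0.909), had intervals of -0.56 to 0.46 and -0.44 to 0.58. In hSS1 the controls held 1242, 704, 844, 997 and 1119 CPM and the Pbrm1-fl tumors 1128, 1441, 634 and 2383. The hSS1 groups overlapped, and the log2 difference of 0.51 (SE 0.34, adjusted p = 0.472) did not pass. The genes most like Reln were Dnaja1-ps, Gm19666 and Gm16113 (r = 0.83 to 0.84), which lie within the Reln gene on its strand, so their reads and those of Reln may be shared.

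Dab1 (ENSMUSG00000028519; chromosome 4, 103619359 to 104744844, plus strand) lies 3.06 Mb before Lrp8. Arid1a, the gene floxed in the Arid1a-fl tumors, is on chromosome 4 too, 25.8 Mb beyond the Lrp8 end. Any part of DNA linked to the floxed allele in the levels of Lrp8 and Dab1 was not tested. In hSS2 controls it ran from 27 to 128 CPM with a median of 82.7. The Arid1a-fl tumors held 71.3 to 197 CPM with a median of 125, 4 of 8 were above the highest control, and 7 of 8 were above the control median. The fitted log2 difference was 0.75 (SE 0.23), given as a description since it belongs to the comparison on which these genes were picked. It was 0.79 without replicates 1 and 5, which stood at 117 and 113 CPM, and 0.59 against controls of the same number range. Unlike that of Lrp8, the shift was spread over most of the group.

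Dab1 spanned 50 to 124 CPM in Arid1b-fl tumors (median 75.1) and 38.4 to 131 in hSS2 Pbrm1-fl tumors (median 59.1), overlapping the controls. The log2 differences were 0.04 (SE 0.23, adjusted p = 0.994) and -0.04 (SE 0.23, adjusted p = 0.948), with intervals of -0.41 to 0.49 and -0.49 to 0.42. In hSS1 the controls held 136, 67.3, 104, 75.3 and 128 CPM and the Pbrm1-fl tumors 107, 105, 54.9 and 111, a log2 difference of -0.11 (SE 0.28, adjusted p = 0.876). The genes most like Dab1 were Pik3r3 (r = 0.76), which encodes a regulatory subunit of phosphoinositide 3-kinase, Zic2 (r = 0.74), a developmental transcription factor, and Nbea (r = 0.73), a neuronal trafficking protein.

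**Figure D4:**
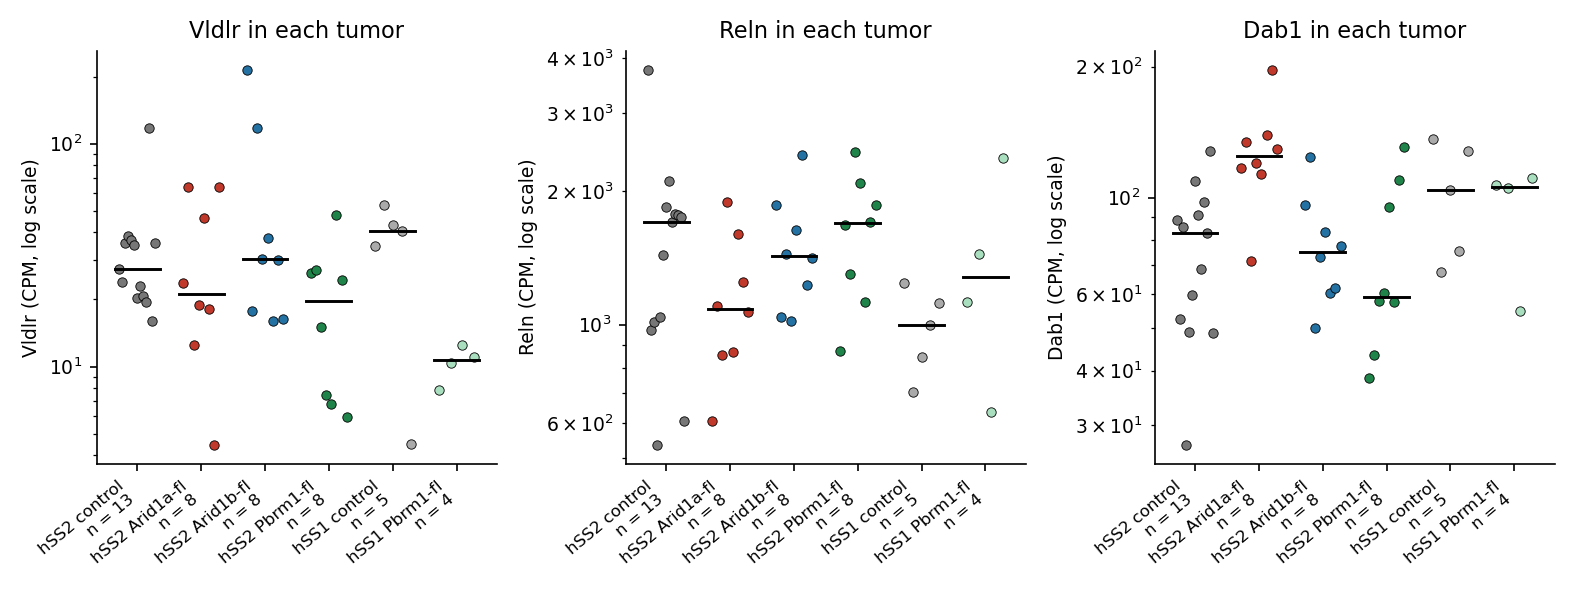
Vldlr, Reln and Dab1 levels (CPM, log scales) in each of 46 tumors by genotype group, with bars at the group medians. Vldlr has 1 high tumor among the hSS2 controls and 2 in the Arid1b-fl group, Reln overlaps throughout, and 4 Arid1a-fl tumors lie above the highest hSS2 control in Dab1.

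None of the tests placed a member past the threshold: 0 of the 4 genes passed in hSS2 Arid1b-fl, hSS2 Pbrm1-fl or hSS1 Pbrm1-fl tumors or in the difference between the fusions, by edgeR at an adjusted p of 0.05. At an unadjusted p under 0.05 there were 2, Lrp8 and Vldlr in hSS1, where 17.2% of all genes had such a p. Lrp8 and Vldlr were also the 2 that DESeq2 called there, while DESeq2 called 0 in the other 3 comparisons. Of all genes tested, edgeR called 0.0548% for Arid1b-fl, 7.35% for Pbrm1-fl in hSS2, 0.00562% for Pbrm1-fl in hSS1 and 2.86% for the difference between the fusions. For Arid1a-fl it called 3.17% of 20083 genes. The DESeq2 fit of hSS1 called 3.67% of its genes, 1246, where edgeR called 1.

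**Figure D5:**
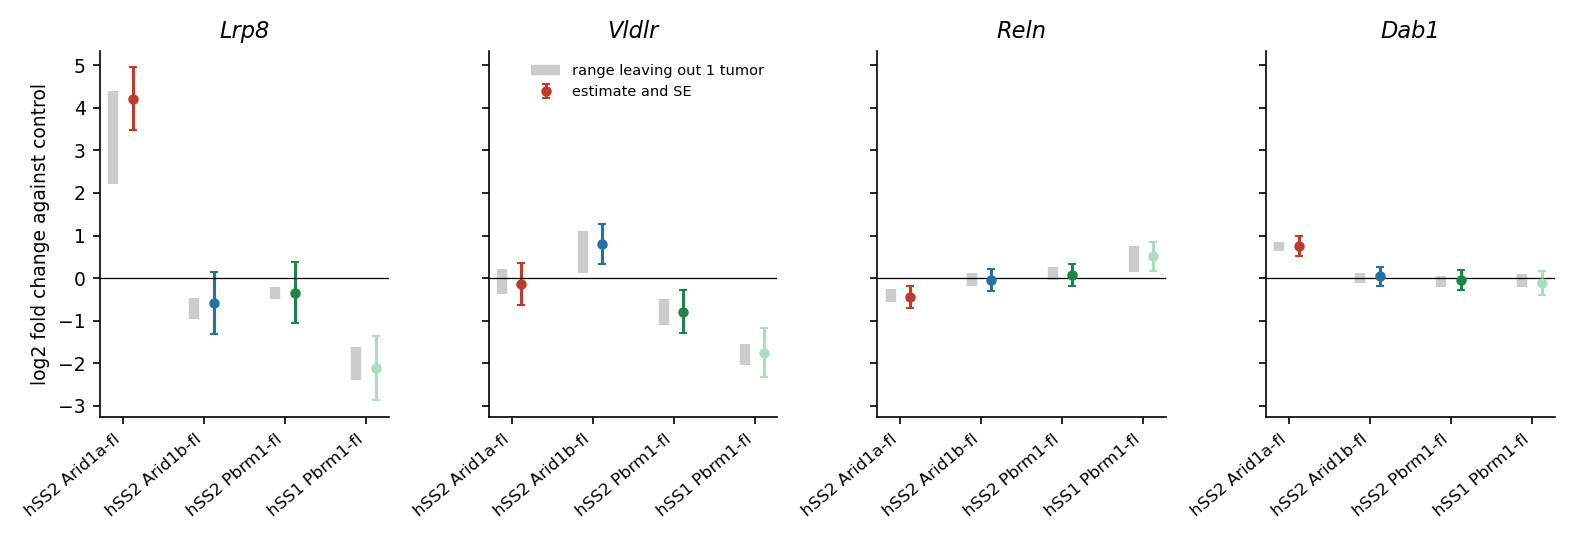
Log2 fold change of each gene against the control tumors of its fusion (points, bars 1 SE, edgeR), beside the range of the estimate when each tumor was left out in turn (gray bars). For Lrp8 in Arid1a-fl tumors the range runs from 2.21 to 4.40. The Arid1a-fl values are those on which the genes were picked.

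Whether these genes varied together beyond genotype was read over the 37 hSS2 libraries, with the group mean of log2 CPM taken off. Of 6 pairs, Reln and Dab1 went together, with Pearson r = 0.54 (permutation p = 0.00136, adjusted over the pairs 0.00816) and Spearman rho = 0.51 (permutation p = 0.00232, adjusted 0.0139). Without the 2 libraries farthest from the Reln median, r was 0.44. Within groups, a look chosen after seeing the data, the relation was strongest in the 13 control tumors (r = 0.77, rho = 0.80, permutation p = 0.00203 and 0.00154). In the floxed groups it did not pass, and a difference between groups was not tested. With 8 tumors each, r was 0.39 in Arid1a-fl (exact permutation p = 0.336), 0.56 in Pbrm1-fl (p = 0.153) and -0.27 in Arid1b-fl tumors (p = 0.512). In the same order, rho was 0.67 (permutation p = 0.0831), 0.71 (p = 0.0576) and -0.17 (p = 0.703). No pair that held a receptor passed the adjusted threshold. Vldlr and Dab1 gave r = -0.29 (permutation p = 0.0689, adjusted 0.207) and rho = -0.36 (permutation p = 0.0335, adjusted 0.1). Lrp8 with Vldlr, Reln and Dab1 gave r of 0.06, -0.18 and -0.01.

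The rest of the pathway was read from lists of ligands and their proteases, co-receptors and receptor trafficking, intracellular signaling, other lipoprotein receptor family members and selenium handling, 84 genes in all. In Arid1a-fl tumors 3 of 81 tested genes were called, 1 higher and 2 lower, beside 3.17% of all genes, and the list median log2 difference was -0.01 beside -0.04 over all genes. Cdk5r1, the p35 activator of the kinase CDK5, fell from 5.76 ± 3.25 CPM (SD, n = 13) to 2.42 ± 0.727 (n = 8), by 1.25 on the log2 scale (SE 0.29, adjusted p = 0.0233, or 0.0668 without replicate 8). Sorl1, a sorting receptor of the lipoprotein receptor family, fell from 213 ± 131 to 82 ± 53.4 CPM (log2 difference -1.38, SE 0.39, adjusted p = 0.0453), a call lost against controls of the same number range (-0.67, adjusted p = 0.335) and without replicate 8 (-1.26, adjusted p = 0.117). Cfl1, which encodes the actin-severing protein cofilin, rose from 401 ± 58.3 to 549 ± 139 CPM (log2 difference 0.46, SE 0.11, adjusted p = 0.0332), a call lost without replicate 1 (0.34, adjusted p = 0.1).

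Most core genes of the pathway did not pass in Arid1a-fl tumors. Mylip, the ubiquitin ligase that directs VLDLR and ApoER2 to degradation, had a log2 difference of 0.51 (SE 0.23, adjusted p = 0.176). For Lrp1, Apoe, Thbs1, Clu, Snx17, Pafah1b1, Fyn and Crk the values ran from -0.66 for Clu to 0.11 for Apoe and Snx17, with adjusted p from 0.289 up. Of 15 selenium handling genes, edgeR and DESeq2 called 0, and 2 were higher at an unadjusted p under 0.05, a smaller share than the 23% of all genes in either direction.

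In hSS2 Pbrm1-fl tumors 10 of 81 list genes were called, 4 higher and 6 lower, beside 7.35% of all genes. The lower genes included Mylip, which fell from 58.3 ± 20.8 to 28 ± 11.9 CPM (log2 difference -1.06, SE 0.24, adjusted p = 0.00585), and Fyn, the kinase of DAB1, from 52.1 ± 9.72 to 38.2 ± 6.28 CPM (-0.45, SE 0.13, adjusted p = 0.0328, or 0.0732 without Pbrm1-fl replicate 8). Adamts3, a protease that cleaves reelin, fell from 4.87 ± 3.52 to 1.07 ± 0.994 CPM (-2.21, SE 0.56, adjusted p = 0.013). Efnb3 (-1.43), an ephrin, Ldlrad4 (-1.62), a member of the receptor family, and Ndel1 (-0.30), a partner of the product of Pafah1b1, were lower too. Ndel1 lost its call without Pbrm1-fl replicate 4 (adjusted p = 0.0842) and Ephb2, a receptor of ephrins, without Pbrm1-fl replicate 2 (adjusted p = 0.091). The called genes that stood higher were the ephrin Efnb2 (0.95), Ephb2 (0.47), Cdk5r2 (1.55), the p39 activator of CDK5, and Lrp11 (1.5). Against the 4 control tumors of the same number range, 2 of these 10 remained called, Efnb3 (-1.90, adjusted p = 0.0152) and Ldlrad4 (-1.68, adjusted p = 0.00553), and Mylip was at -0.65 (adjusted p = 0.296).

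In Arid1b-fl tumors edgeR and DESeq2 called 0 of 81 list genes, and 6 had an unadjusted p under 0.05, beside 6.22% of all genes. In hSS1 Pbrm1-fl tumors edgeR called 0 of 80 and DESeq2 5, with 13 at an unadjusted p under 0.05. Over all hSS1 genes DESeq2 called 3.67%, and 17.2% had an unadjusted edgeR p under 0.05. The Pbrm1-fl effect differed between the fusions for 3 of 82 list genes, beside 2.86% of all genes. Mylip was at 57.7 ± 31.6 CPM (n = 4) in hSS1 Pbrm1-fl tumors and 40.7 ± 17.5 (n = 5) in hSS1 controls, and its effect in hSS1 minus that in hSS2 was 1.56 (SE 0.45, adjusted p = 0.0474, or 0.173 without hSS1 Pbrm1-fl replicate 2). For Ndel1 that difference was 0.82 (SE 0.18, adjusted p = 0.0138) and for Lrp11 -1.99 (SE 0.57, adjusted p = 0.045, or 0.117 without hSS1 Pbrm1-fl replicate 1). With only hSS2 tumors of the highest number range, 0 of these 3 passed by edgeR, with adjusted p of 0.376 for Mylip, 0.178 for Ndel1 and 0.345 for Lrp11.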

How the data were processed

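Bulk tumor RNA (rRNA-depleted, stranded libraries, 46 tumors) was sequenced by the authors, aligned to mm10 with STAR 2.7.11 and counted with featureCounts 1.6.3, per the study's methods and processing notes. The authors deposited raw read counts per Ensembl gene, 1 table for 37 hSS2 and 1 for 9 hSS1 libraries. The annotation release, strand setting and treatment of multimapping reads were not given in the sources used here. Symbols, positions and exon lengths came from GENCODE M21.

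Groups followed the sample titles. The study describes littermate controls, but no label ties a tumor to a litter, so litter was not modeled. The tests set group differences against the spread between tumors and took tumors as independent, though some may share a litter. No pair within a group agreed within counting noise. The members and gene lists were chosen with earlier results of these data known. Counts were filtered with filterByExpr, scaled by TMM and tested with two-sided quasi-likelihood F-tests in edgeR 4.0.16 (R 4.3.3), robust, with Benjamini-Hochberg adjustment over all tested genes and calls at 0.05. One fit took the 37 hSS2 libraries, another the 9 of hSS1, and the difference between fusions used all 46. SE is the log2 difference over the root of F, and intervals are 1.96 SE. Likeness and correlations used log2 CPM with a prior count of 2 and, for pairs, 100000 permutations within groups. Named list genes were those past the threshold, up to 6 a direction, and fixed core genes. Likeness named the 5 closest genes for Lrp8 and 3 for each other member, of mean CPM at least 1. Alternatives were RLE scaling, no filter, DESeq2 1.42.0, controls of the same mouse number range (under 1000, to 2000, above), 2-group fits and leaving out each tumor. Code was tested on simulated data.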

Additional observations from a re-analysis of the deposited data

Results flagged for a closer look

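Each member was screened in the groups of 4 to 8 tumors, other than the hSS2 Arid1a-fl group on which the members were picked, for a highest or lowest tumor that stands apart by Dixon's criterion. Of 16 screens, run on CPM without a log, 2 marked a tumor. Chance marks about 1 in 20 where values are normally distributed, which was not checked for these levels. Lrp8 in hSS2 Arid1b-fl replicate 5, at 71.1 CPM, stood above the other 7 tumors at 13.4 to 29.3 CPM, with a gap of 0.723 of the range. Dab1 in hSS1 Pbrm1-fl replicate 3, at 54.9 CPM, lay below the other 3 at 105 to 111 CPM, with a gap of 0.894 of the range. For no member did the test of the Pbrm1-fl effect in hSS1 against that in hSS2 pass, nor did every tumor of the fusions shift in opposite directions.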

How the results depend on the processing

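Limits: the hSS1 groups held only 5 and 4 tumors, and the hSS2 floxed groups fell in single mouse number ranges, so range and genotype could be told apart only against the controls of that range. Lrp8 in hSS2 Arid1a-fl tumors moved from 4.21 to 2.06 under DESeq2, which replaced the count of replicate 1, to 2.21 to 4.40 when each tumor was left out, and to -0.24 without both replicates 1 and 5, a setting added after seeing the data. In hSS1 Pbrm1-fl tumors, Lrp8 (-2.12, adjusted p = 0.042) and Vldlr (-1.75, adjusted p = 0.0358) passed under DESeq2, and Vldlr ran from -2.04 (without control replicate 5, adjusted p = 0.0483) to -1.55 with each tumor left out. The cause was not tested.

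Small differences changed sign when single tumors were left out. Vldlr in Arid1a-fl tumors ran from -0.37 to 0.22, Reln from -0.04 to 0.25 in hSS2 Pbrm1-fl and from -0.18 to 0.13 in Arid1b-fl tumors. Dab1 ran from -0.20 to 0.05 in hSS2 Pbrm1-fl, -0.11 to 0.13 in Arid1b-fl and -0.21 to 0.09 in hSS1 Pbrm1-fl tumors, and from -0.18 to 0.12 for the difference between fusions. Against controls of the same number range Dab1 in hSS2 Pbrm1-fl tumors was 0.22 (adjusted p = 0.86). In control tumors alone, r was -0.14 for Lrp8 with Vldlr, 0.25 with Reln and 0.11 with Dab1. Of the values of tested members under alternatives, 285 kept their direction and side of the threshold, 24 changed direction and 3 newly passed.

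Counts of called genes depended on the setting. For Arid1a-fl tumors 637 genes became 1730 under DESeq2, 1446 with controls of the same range, 243 without a filter, 159 in a 2-group fit, 109 without replicates 1 and 5, and 56 (without Arid1a-fl replicate 8) to 1416 (without Arid1a-fl replicate 6) with a tumor left out. For hSS2 Pbrm1-fl, 1476 became 2286 under DESeq2 and 526 with controls of the same range. For Arid1b-fl, 11 became 18 under DESeq2, 27 without a filter, 0 with controls of the same range, 3 in a 2-group fit, and 6 (without Arid1b-fl replicate 5) to 15 with a tumor left out. For hSS1 Pbrm1-fl, 1 became 1246 under DESeq2, 0 with controls of the same range, and 0 to 4 with a tumor left out. For the difference between fusions, 622 became 1166 under DESeq2, 402 without a filter, 6 with hSS2 tumors of the highest range only, and 235 to 847 with an hSS1 tumor left out. Among the pathway genes, the 3 called for Arid1a-fl became 5 under DESeq2 or with controls of the same range, 1 in a 2-group fit or without replicates 1 and 5, and 0 without replicate 8. The 10 for hSS2 Pbrm1-fl became 2 with controls of the same range, the 0 for hSS1 became 5 under DESeq2, and the 3 for the difference became 6 under DESeq2, 1 without a filter, 0 with hSS2 tumors of the highest range only, and 1 to 6 with a tumor left out. No paired analysis was possible because replicate numbers follow accession order and no label gives the litter of a tumor.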
